A study of Mus musculus with 96 samples.

Results

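The activity-regulated immediate early genes described here are 38 mouse genes chosen by symbol, with earlier results of these data known. All 38 were found among the 39179 Ensembl gene identifiers of the deposited tables of mouse striatum. Neurons hold these genes ready for rapid induction: synaptic calcium entry and dopamine or glutamate receptor signalling activate the transcription factors CREB, SRF and MEF2, which already sit at the promoters. The products fall into transcription factors that set off a later wave of genes, phosphatases and other brakes that shut the kinase signal off, and effectors that act at the synapse or are secreted. In the striatum, which receives the main input of the basal ganglia, they are widely used as reporters of dopamine and cortical input to the projection neurons.

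The striatum of heterozygous Htt knock-in mice on a C57BL/6 background, with CAG length labels of 20, 50, 92 or 140 (Q20, Q50, Q92 and Q140), and of wild types described as littermate controls was profiled in mice aged 6 and 10 months. Each of the 12 groups held 8 of the 96 libraries, from 4 females (F1 to F4) and 4 males (M1 to M4). By the housing labels the 16 wild types of an age were 8 mice kept with Q20 mice (Q20-cohort wild types) and 8 kept with Q50 mice (Q50-cohort wild types), whereas Q92 and Q140 mice were kept with their own genotype alone, so their housing and their genotype cannot be told apart. Total RNA came from flash-frozen tissue, no label says that animals were pooled, and the labels give neither the time of day nor the handling before tissue collection, to which these genes are known to be sensitive.

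Library totals ran from 29.1 to 40.2 M expected counts. Htt, the targeted gene, stood at 173 ± 4.44 CPM (counts scaled to an equal library total; SD, n = 8) in Q140 mice and 192 ± 15.8 and 191 ± 18.3 in the 2 wild-type cohorts at 6 months (log2 fold change -0.14, edgeR quasi-likelihood test, Benjamini-Hochberg adjusted p = 0.00726). Across all genes 5 libraries stood farthest from the median of their group: Q20 F4, Q20 M4, Q92 F1 and Q140 M4 at 10 months and the Q50-cohort wild type F3 at 6 months. No cut-off set this number. The mean absolute difference from the group median was 0.236 log2 CPM in that wild type and 0.231 in the next library, Q20 M4 at 6 months. The 14 shared markers of striatal projection neurons, Ppp1r1b among them, had a mean level of 7.45 to 9.82 log2 CPM in single libraries, the lowest in a Q20 mouse at 10 months. The mean level of 10 thalamus marker genes varied by group: it was lowest in Q50 mice at 6 months (2.92 ± 0.72 log2 CPM) and highest in Q20 mice at 10 months (5.48 ± 0.91). Results that rest on these libraries or move with that level are given with their values without or beside them.

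RefSeq promoters (build GRCm38.p6, from 250 bases before to 50 after a transcription start) are shown for 5 members on which the results turn. Egr2, Homer1 and Dusp14 fell most in Q140 mice, Fos, the prototype of the class, did not pass the test, and Dusp1 followed Fos most closely from library to library. Capitals mark the cyclic AMP response element (CRE) TGACGTCA, its core TGACG on either strand (CGTCA when read from the other strand), and the SRF-binding CArG box. The sequences read 5′ to 3′ along the transcribed strand.
Egr2, chr10:67537619-67537918, plus strand: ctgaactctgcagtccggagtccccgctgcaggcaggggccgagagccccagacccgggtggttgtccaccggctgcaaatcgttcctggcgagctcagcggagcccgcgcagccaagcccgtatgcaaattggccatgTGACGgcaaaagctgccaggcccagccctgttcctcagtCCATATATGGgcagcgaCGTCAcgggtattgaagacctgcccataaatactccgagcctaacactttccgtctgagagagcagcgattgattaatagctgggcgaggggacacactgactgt
Homer1, chr13:93303507-93303806, plus strand: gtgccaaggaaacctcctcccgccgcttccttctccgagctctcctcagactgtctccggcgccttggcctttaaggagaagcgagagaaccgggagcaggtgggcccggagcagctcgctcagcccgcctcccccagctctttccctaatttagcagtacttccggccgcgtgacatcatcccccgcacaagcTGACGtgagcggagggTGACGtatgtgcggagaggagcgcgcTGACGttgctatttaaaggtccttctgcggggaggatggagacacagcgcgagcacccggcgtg
Dusp14, chr11:84068308-84068607, minus strand: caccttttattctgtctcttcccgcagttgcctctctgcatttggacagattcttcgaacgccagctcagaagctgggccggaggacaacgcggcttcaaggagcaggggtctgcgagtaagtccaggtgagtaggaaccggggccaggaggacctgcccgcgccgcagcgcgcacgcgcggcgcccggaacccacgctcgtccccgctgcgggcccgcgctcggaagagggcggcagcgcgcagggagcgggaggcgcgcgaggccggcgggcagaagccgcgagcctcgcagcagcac
Fos, chr12:85473640-85473939, plus strand: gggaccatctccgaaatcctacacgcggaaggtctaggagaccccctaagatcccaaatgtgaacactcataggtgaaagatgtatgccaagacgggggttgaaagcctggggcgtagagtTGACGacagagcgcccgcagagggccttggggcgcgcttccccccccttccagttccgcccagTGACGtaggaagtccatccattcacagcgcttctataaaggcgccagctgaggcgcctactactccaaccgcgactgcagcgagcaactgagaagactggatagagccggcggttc
Dusp1, chr17:26508423-26508722, minus strand: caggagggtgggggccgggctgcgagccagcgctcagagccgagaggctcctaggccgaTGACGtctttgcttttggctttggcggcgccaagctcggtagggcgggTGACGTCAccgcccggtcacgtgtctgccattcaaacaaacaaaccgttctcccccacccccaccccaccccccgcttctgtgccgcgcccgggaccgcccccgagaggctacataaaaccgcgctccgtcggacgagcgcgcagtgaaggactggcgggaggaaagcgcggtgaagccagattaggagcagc

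Counted from the start, the Dusp1 window holds the full CRE at -143 to -136, and the Fos window holds cores at -129 and -66. The Homer1 window holds 3 cores, at -56, -40 and -14. The Egr2 window has a core at -111, a CArG box at -72 to -63 and a core on the other strand at -55. No capitals occur in the Dusp14 window, which says only that these letters are absent from these 300 bases. Where a gene has several starts in the table, as Egr2 and Homer1 have, the start with the most cores is shown.

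Over all 37 promoters listed for 28 of the members, the core TGACG occurred in 22 (59.5%), against 20.8% of 32851 mouse promoters of the same length. The full CRE, which contains the core, occurred in 4 member promoters (10.8% against 1.79%): those of Arl4d, Btg2, Dusp1 and Maff. The CArG box, a palindromic pattern that is searched on both strands, occurred in 5 member promoters (13.5% against 1.63%). These belong to 2 of the 28 genes, Egr2 and Dusp5, because each start of a gene is counted as a promoter. The EGR site GCGGGGGCG occurred in 4 (10.8% against 2.91%), of Fosb, Fosl2, Klf4 and Nr4a1, and the AP-1 site TGANTCA in 0 (0% against 7.81%). These matches are a description of the letters and were not tested as binding sites.

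The members differed widely in their level in wild types. Per gene length (FPKM, mean over 16 wild types at 6 months), the transcription factor Egr1 was the most abundant at 97.0, followed by the synaptic scaffold gene Homer1 at 57.8, the nuclear receptor Nr4a1 at 49.6, the synaptic plasticity gene Arc at 48.1 and the phosphatase gene Dusp14 at 43.1. Fos stood at 9.99 and Egr2 at 6.33. At the low end were Ptgs2, the inducible cyclooxygenase, at 0.71 and the small MAF protein gene Maff at 0.69. The gene-level values do not separate the activity-induced short Homer1 isoform from the constitutive long ones.

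Every member varied more between mice of the same group than the median gene did. With group and sex removed, the SD of log2 CPM over the 48 libraries of an age had a median over the 38 members of 0.34 at 6 months and 0.44 at 10 months, against 0.14 and 0.17 over all genes tested. All 38 members lay above the all-gene median at both ages. That median is not matched for level. Among genes of similar level the lowest members were Inhba at percentile 54.7 at 6 months and Pim1 at 51 at 10 months. Fos stood at percentile 99.9 and 99.5. The lowest SD was that of Ier5, an immediate early response gene, at 0.14 at 6 months, and the highest that of Egr2 at 1.19 at 10 months. Fos had an SD of 0.69 and 0.80. Its level in single wild types at 6 months ran from 2.61 to 46.1 CPM around a median of 18.6.

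The members varied together from mouse to mouse within groups. Of all pairs of members, 85.5% had a correlation above 0 at 6 months and 85.8% at 10 months, with a median Pearson r of 0.40 and 0.48 between deviations from the group and sex means (n = 48 libraries at each age). The 37 relations with Fos were taken as a family at each age, and 23 passed an adjusted permutation p of 0.05 at 6 months and 32 at 10 months, all positive (100000 permutations, two-sided). Without the 5 libraries that stood apart the numbers were 22 and 30. These deviations share library depth and tissue dissection as well as the state of the mouse. Correlations were computed for the members alone, so no share of all genes stands beside these counts or the later ones of this kind. With the thalamus level, 3 of 38 relations passed at 6 months (1 positive) and 26 at 10 months, of which 23 were negative. That of Homer1 at 10 months had an r of -0.58 (rho = -0.61, adjusted permutation p = 0.00019; r = -0.60 without the 2 extreme libraries).

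Dusp1, which encodes a MAP kinase phosphatase induced by the kinases it switches off, followed Fos most closely. Its r with Fos was 0.96 at 6 months (rho = 0.95, adjusted permutation p = 2.6e-05, which rests on the smallest p that the permutations can give, 1e-05; r = 0.94 without the 2 libraries most extreme in Fos) and 0.93 at 10 months (rho = 0.91, adjusted permutation p = 2.1e-05; r = 0.90 without those 2). Arc was next, with an r of 0.91 and 0.88, and the AP-1 gene Junb had 0.90 and 0.69. The salt-inducible kinase gene Sik1 had 0.82 and 0.88, the antiproliferative gene Btg2 0.84 and 0.84, and Npas4, a neuron-specific factor induced by calcium entry, 0.74 and 0.76. In all, 11 members at 6 months and 12 at 10 months had an r with Fos over 0.7.

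Other members showed little relation to Fos. Homer1 had an r of -0.07 at 6 months (rho = -0.23, adjusted permutation p = 0.667; r = -0.15 without the 2 extreme libraries) and 0.29 at 10 months (rho = 0.10, adjusted permutation p = 0.056; r = 0.32 without those 2), and the latter was 0.01 without the 4 libraries that stood apart at that age. The kinase gene Pim1 had -0.17 and -0.24 and the phosphatase gene Dusp4 -0.04 and 0.17. Nr4a2 had 0.02 at 6 months and 0.42 at 10 months, so it showed little relation to Fos at 6 months only. At both ages Nr4a2 followed the level of 11 cortical projection neuron markers. Its r with that level was 0.86 at 6 months (rho = 0.78, adjusted permutation p = 0.00038 over 38 relations, r = 0.83 without the 2 extreme libraries). At 10 months it was 0.72 (rho = 0.61, adjusted permutation p = 0.000127, r = 0.64 without those 2).

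A different anchor, chosen after its values were seen, was Nr4a3, an orphan nuclear receptor. Fosl2, an AP-1 member, followed it with an r of 0.94 and 0.97, Dusp14 with 0.93 and 0.85, Tiparp with 0.90 and 0.91, and the clock gene Per1, which is also CRE-driven, with 0.87 and 0.90. Homer1 followed Nr4a3 with an r of 0.77 (rho = 0.69, adjusted permutation p = 2.2e-05; r = 0.71 without the 2 extreme libraries) and 0.65 (rho = 0.54, adjusted permutation p = 1.8e-05; r = 0.63). Of the 37 relations with Nr4a3, 25 passed the threshold at 6 months (24 positive) and 33 at 10 months (31 positive), and Pim1 was among the negative ones at both ages, with an r of -0.48 and -0.47. Egr2 and Nr4a1 had an r over 0.7 with both anchors at both ages. For Egr2 it was 0.75 and 0.81 with Fos, and 0.73 and 0.84 with Nr4a3. At 10 months this also held for Fosl2, Dusp5, Dusp6, Sik1 and Tiparp.

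**Figure D1:**
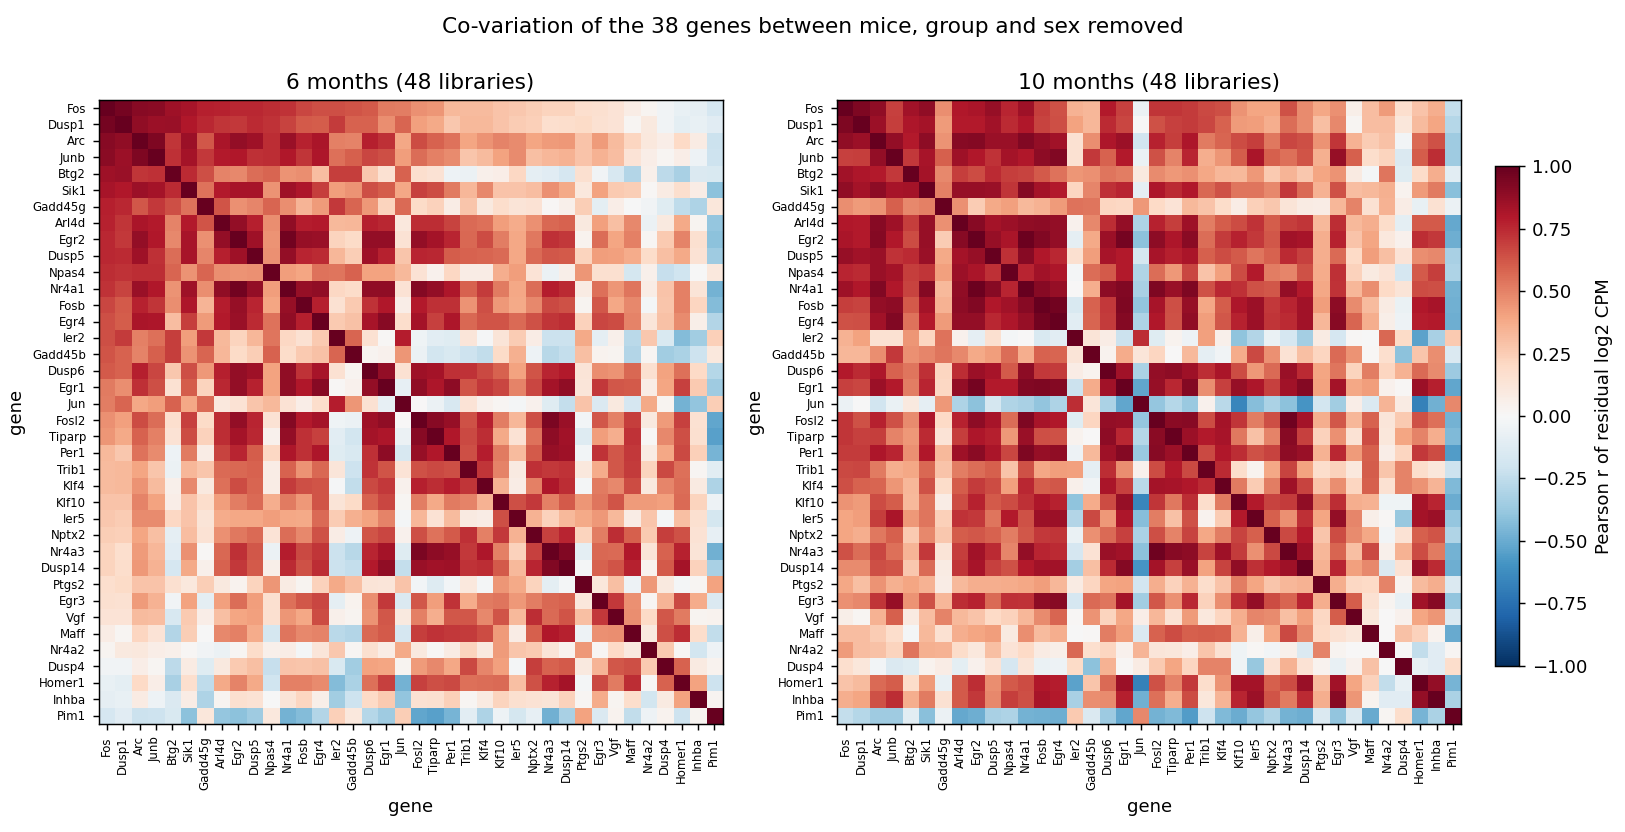
Pearson correlation between deviations of log2 CPM from the group and sex means, for all pairs of the 38 members over the 48 libraries of each age (6 months left, 10 months right; colour scale from negative to positive). The block of members that move with Fos (Dusp1, Arc, Junb, Btg2, Sik1) and the block that moves with Nr4a3 (Fosl2, Dusp14, Tiparp, Per1) can be seen at 6 months. At 10 months they run into each other, and Pim1 correlates negatively with most members at that age.

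The core clock gene Per2 and the clock output gene Dbp, both outside the 38 and chosen after values were seen, were also used as anchors because time of day is not in the labels. Of 38 relations with Per2, 22 passed the threshold at 6 months (18 positive) and 32 at 10 months (29 positive). Dusp14 followed Per2 with an r of 0.76 and 0.81 and Homer1 with 0.73 and 0.77, whereas Dusp1 had -0.21 and 0.24. With Dbp 1 of 38 relations passed at 6 months and 18 at 10 months. The part that collection time plays in the members' levels was not tested.

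In Q140 mice at 6 months 12 of the 38 members were lower than in the 16 wild types and 0 were higher (36 lay below 0 and 2 above it, and 20 had an unadjusted p under 0.05; DESeq2 and limma on FPKM also gave 0 rises). Their median log2 fold change was -0.34, against 0.0079 over all 17339 genes tested. Falls were called for 12% of all genes and rises for 11.7%. Of the 12 members, 4 were EGR transcription factors and 3 were synaptic or secreted effectors, and Fos was not among them.

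All 4 EGR transcription factors, zinc finger proteins that relay synaptic activity and MAP kinase signalling to later genes, fell at 6 months. Egr2 (ENSMUSG00000037868) ran from 3.53 to 35.0 CPM with a median of 18.1 in the wild types and from 4.87 to 10.7 with a median of 6.14 in Q140 mice. It fell 2.68-fold (log2 fold change -1.42 ± 0.28 SE, adjusted p = 0.000198). All 8 Q140 libraries were under the wild-type median and none was under the lowest wild type, so the groups overlapped.

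Egr3, needed for muscle spindle development, ran from 30.4 to 55.4 CPM with a median of 43.0 in wild types and from 25.4 to 36.1 with a median of 28.6 in Q140 mice, where 6 of 8 libraries lay below every wild type. Its log2 fold change was -0.53 ± 0.12 (adjusted p = 0.000537). Egr1 ran from 141 to 418 CPM (median 312) in wild types and from 165 to 250 (median 183) in Q140 mice (log2 fold change -0.60 ± 0.15, adjusted p = 0.00207). Egr4 ran from 4.79 to 34.1 CPM (median 22.4) and from 11.8 to 19.1 (median 12.6), with a log2 fold change of -0.62 ± 0.20 (adjusted p = 0.0209). For Egr1 and Egr4 the Q140 libraries lay within the range of the wild types, in its lower part.

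Of the 5 AP-1 genes, whose products pair to bind AP-1 sites, Fosb fell at 6 months. Fos (ENSMUSG00000021250) ran from 2.61 to 46.1 CPM with a median of 18.6 in wild types and from 14.4 to 22.9 with a median of 18.3 in Q140 mice, so the Q140 libraries sat in the middle of the wild types (log2 fold change -0.10 ± 0.28, adjusted p = 0.84). Fosb ran from 8.81 to 28.8 CPM (median 20.2) in wild types and from 11.7 to 18.6 (median 14.5) in Q140 mice, with a log2 fold change of -0.36 ± 0.13 (adjusted p = 0.0385). That call was lost in 10 of 24 fits that each left out 1 library (Q140 F1, F3, M1, M2 and M3; Q20-cohort wild types F1, F4 and M3; Q50-cohort wild types F3 and M4), with a highest adjusted p of 0.096 and log2 fold changes from -0.41 to -0.31. Fosl2 and Junb did not pass (log2 fold change -0.61 ± 0.26, adjusted p = 0.0886, and -0.46 ± 0.20, adjusted p = 0.0839), and the partner Jun stood at -0.09 ± 0.088.

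The 3 NR4A orphan nuclear receptors had the lowest median of any role, -0.75, and none passed: Nr4a1 had a log2 fold change of -0.61 ± 0.25 (adjusted p = 0.0718), Nr4a2 -0.75 ± 0.48 (adjusted p = 0.262) and Nr4a3 -0.75 ± 0.37 (adjusted p = 0.143). Their spread between mice of 1 group was wide. Nr4a2 alone ran from 1.94 to 23.0 CPM in wild types and from 2.05 to 15.6 in Q140 mice.

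Among the 5 MAP kinase phosphatases, which dephosphorylate ERK, JNK or p38, Dusp14 and Dusp6 fell. Dusp14 (ENSMUSG00000018648) ran from 32.6 to 86.1 CPM with a median of 57.8 in wild types and from 23.9 to 38.6 with a median of 31.9 in Q140 mice, 4 of which lay below every wild type. It fell 1.86-fold (log2 fold change -0.89 ± 0.17, adjusted p = 8.05e-05). Dusp6, the cytoplasmic ERK phosphatase, ran from 26.8 to 56.5 CPM (median 44.1) and from 26.7 to 38.6 (median 32.2), with a log2 fold change of -0.41 ± 0.11 (adjusted p = 0.0042). The nuclear phosphatases Dusp1, Dusp4 and Dusp5 had -0.24 ± 0.14, -0.03 ± 0.16 and 0.04 ± 0.13 and did not pass.

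Homer1 (ENSMUSG00000007617), whose protein links metabotropic glutamate receptors to the postsynaptic density, was the member with the clearest separation. Wild types ran from 149 to 279 CPM with a median of 216, and Q140 mice from 96.7 to 139 with a median of 113, so the groups did not overlap. It fell 1.90-fold (log2 fold change -0.92 ± 0.10, adjusted p = 1.68e-09). Homer1 was the only member with all 8 Q140 libraries below every wild type; 1.36% of all genes had that pattern.

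Other effectors fell with smaller steps. Inhba, the subunit of the growth factor activin A, ran from 3.36 to 5.65 CPM (median 4.26) in wild types and from 2.29 to 3.68 (median 3.49) in Q140 mice (log2 fold change -0.44 ± 0.092, adjusted p = 0.000379). Nptx2, a secreted pentraxin that clusters AMPA receptors, ran from 17.2 to 30.4 CPM (median 22.4) and from 15.97 to 19.6 (median 17.7), with a log2 fold change of -0.42 ± 0.097 (adjusted p = 0.00125). In both, 3 of 8 Q140 libraries lay below every wild type.

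Arc, which drives AMPA receptor endocytosis, ran from 39.4 to 262 CPM with a median of 140.1 in wild types and from 82.5 to 136 with a median of 109 in Q140 mice, and did not pass (log2 fold change -0.45 ± 0.20, adjusted p = 0.0958). Leaving out the Q20-cohort wild type M1, a library low in Fos and Npas4, brought Arc to -0.52 with an adjusted p of 0.021, and the number of members called from 12 to 18. The neuropeptide precursor gene Vgf had -0.24 ± 0.11 (adjusted p = 0.105) and Ptgs2 0.14 ± 0.13.

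Of the 9 other transcription regulators Ier5 fell, from a range of 32.5 to 45.3 CPM (median 39.6) in wild types to 24.0 to 33.0 (median 28.5) in Q140 mice, 7 of which lay below every wild type. Its log2 fold change was -0.45 ± 0.062 (adjusted p = 2.9e-07). Npas4 ran from 8.63 to 45.1 CPM (median 32.1) in wild types and from 14.6 to 29.7 (median 22.5) in Q140 mice and did not pass (log2 fold change -0.39 ± 0.20, adjusted p = 0.161). Per1 had -0.28 ± 0.13, Tiparp, which modifies proteins with ADP-ribose, -0.33 ± 0.16, Btg2 -0.27 ± 0.26 and the Krüppel-like factors Klf4 and Klf10 -0.25 ± 0.15 and -0.12 ± 0.11. Maff stood at -0.13 ± 0.22 and Ier2 at -0.04 ± 0.15.

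Of the 6 kinases and signalling regulators the small GTPase gene Arl4d fell, from 16.5 to 53.4 CPM (median 41.4) in wild types to 24.6 to 37.6 (median 31.1) in Q140 mice, with a log2 fold change of -0.38 ± 0.12 (adjusted p = 0.0147). Each Q140 library fell short of the median wild type but stayed within the wild-type range. The stress sensors Gadd45b and Gadd45g had -0.20 ± 0.094 and -0.11 ± 0.10, Sik1 -0.19 ± 0.15, Pim1 -0.18 ± 0.13 and the pseudokinase gene Trib1 -0.10 ± 0.13, and none passed.

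**Figure D2:**
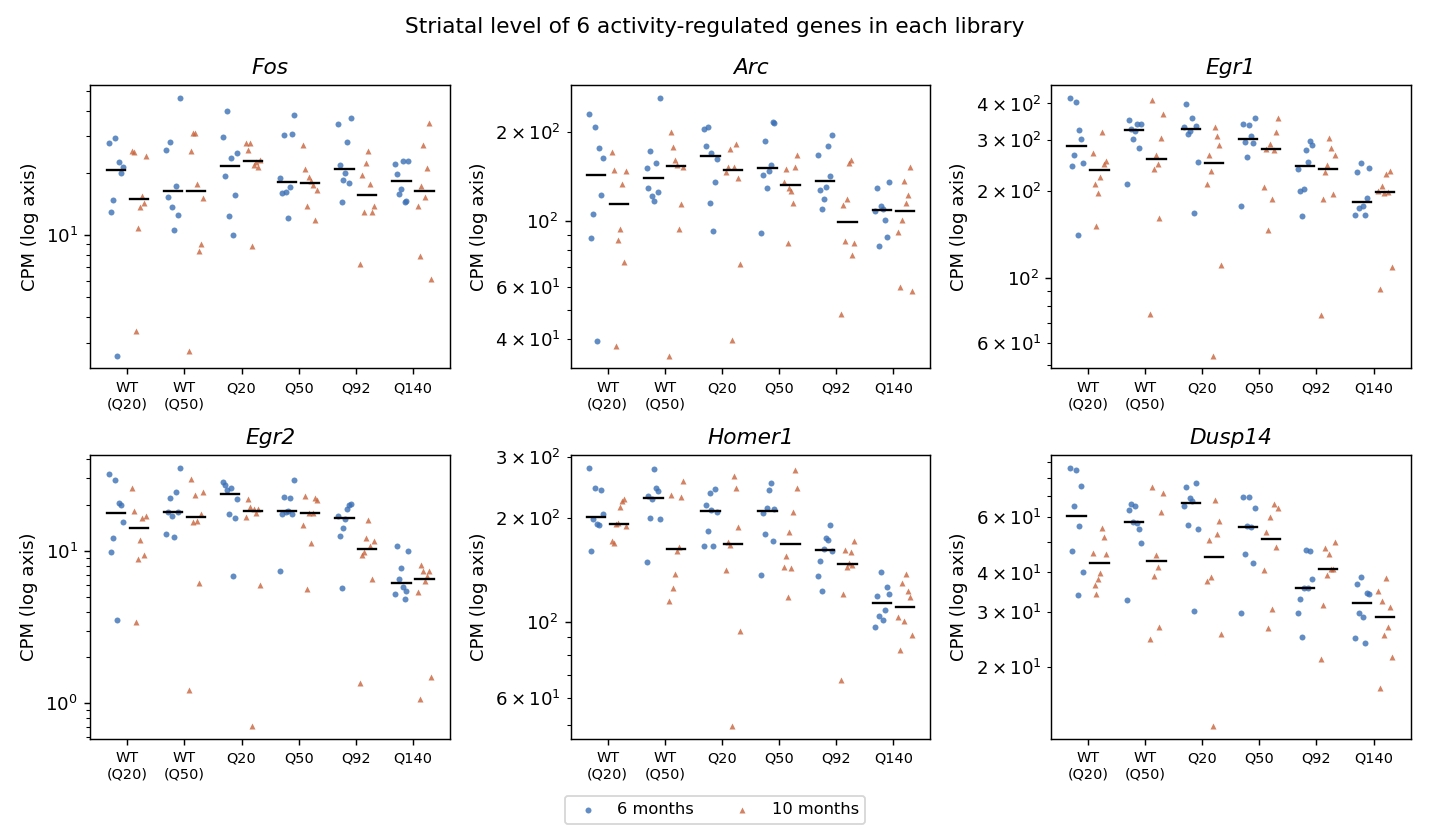
Level of Fos, Arc, Egr1, Egr2, Homer1 and Dusp14 in each library (CPM, log axis) by genotype group and age; each point is 1 library and each bar is the median of 8. Homer1 in Q140 mice at 6 months sits between 96.7 and 139 CPM, under all 16 wild types, while Fos in the same mice sits between 14.4 and 22.9 CPM, inside the wild-type range of 2.61 to 46.1.

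Other sets of marker genes moved in the same comparison. Of 14 shared projection neuron markers 14 fell in Q140 mice at 6 months (median log2 fold change -0.52), among them Arpp21, a cyclic AMP-regulated phosphoprotein gene (-0.86 ± 0.063, adjusted p = 1.5e-14). In bulk tissue fewer cells of a type and less RNA per cell cannot be told apart. Of 6 indirect pathway markers tested 4 fell (median -0.67), and of 8 direct pathway markers 5 fell and 2 rose (median -0.25). Of 11 cortical projection neuron markers 3 fell and 1 rose (median -0.69), and of 10 thalamus markers 6 rose (median 0.93). With the thalamus level as a covariate 9 members fell, and Fosb (adjusted p = 0.175), Egr4 (0.0973) and Arl4d (0.0602) no longer passed; Egr2, Homer1 and Dusp14 still did. With thalamus and cortex levels together Egr1 was lost as well (log2 fold change -0.42, adjusted p = 0.0565).

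The number of calls depended on the wild-type cohort used. Against the Q20-cohort wild types alone 9 members fell in Q140 mice at 6 months, where falls were called for 7.75% of all genes. Against the Q50-cohort wild types alone 12 fell, where falls were called for 12.6% of all genes. The former comparison lost Fosb (log2 fold change -0.15), Egr4 (-0.53) and Arl4d (-0.26), for which the Q50-cohort gave -0.56, -0.71 and -0.49. Between the wild-type cohorts themselves 0 members differed at either age (2 and 0 with an unadjusted p under 0.05, and 0 by DESeq2), with 0% of all genes called at 6 months and 0.347% at 10 months. An unadjusted p under 0.05 was found for 2574 of all 17339 genes at 6 months and 1665 of 17285 at 10 months. At 6 months the thalamus level was 4.25 ± 0.73 log2 CPM in the Q20-cohort and 2.99 ± 0.58 in the Q50-cohort wild types.

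At 10 months 8 members fell in Q140 mice and 0 rose (7 lay above 0 and 13 had an unadjusted p under 0.05; DESeq2 gave 0 rises and limma on log2(FPKM + 1) gave 2). The median over members was -0.18, against 0.0053 over all 17285 genes tested, and falls were called for 8.45% and rises for 10.8% of all genes. Egr2, Homer1, Dusp6, Dusp14, Nptx2 and Inhba fell at both ages, which is 50% of the 12 called at 6 months and 75% of the 8 called at 10 months. Dusp4 and Pim1 were called at 10 months but not at 6. The libraries of the 2 ages are separate mice.

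Marker genes moved at this age too, and their part in the members' falls was not tested. In Q140 mice at 10 months 7 of 14 shared projection neuron markers (median log2 fold change -0.45) and 3 of 6 indirect pathway markers (median -0.57) fell. Of the glial and vessel markers 5 of 9 for astrocytes, 4 of 9 for blood vessels and 3 of 9 for oligodendrocytes fell. None of the 10 thalamus markers passed, with a median of -1.11, nor any of the 11 cortical ones (median -0.0025). With the thalamus level as a covariate 12 members fell, the 8 above and Egr1, Egr3, Ier5 and Per1, and Egr2 stood at -1.85 ± 0.43 (adjusted p = 0.000955). The share of all genes that fell in this fit was not counted.

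Egr2 ran from 1.23 to 29.4 CPM with a median of 16.1 in wild types and from 1.06 to 8.09 with a median of 6.59 in Q140 mice at 10 months, a 2.79-fold fall (log2 fold change -1.48 ± 0.43, adjusted p = 0.0115). Homer1 ran from 115 to 255 CPM (median 190.2) and from 82.9 to 137 (median 111), a 1.69-fold fall (-0.76 ± 0.17, adjusted p = 0.0011), with 4 of 8 Q140 libraries below every wild type. Dusp14 ran from 24.5 to 74.8 CPM (median 43.5) and from 17.2 to 38.4 (median 28.9), with a log2 fold change of -0.69 ± 0.20 (adjusted p = 0.0135). Dusp14 did not pass against the Q20-cohort wild types alone (-0.61, adjusted p = 0.0589) or against Q20 mice (-0.59, adjusted p = 0.051). All 8 Q140 libraries were below the wild-type median for each of these 3 genes, and each of the 3 overlapped the wild types. No member had all 8 Q140 libraries below every wild type at this age, a pattern of 0.793% of all genes.

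Dusp4, a nuclear ERK and JNK phosphatase, ran from 2.76 to 5.98 CPM (median 3.93) in wild types and from 1.25 to 3.78 (median 2.99) in Q140 mice at 10 months, a 1.46-fold fall (log2 fold change -0.55 ± 0.16, adjusted p = 0.0115). Pim1 ran from 1.78 to 2.89 CPM (median 2.25) and from 1.10 to 2.33 (median 1.82), with a log2 fold change of -0.40 ± 0.12 (adjusted p = 0.0184). For Dusp4 3 Q140 libraries and for Pim1 4 lay below every wild type.

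Inhba ran from 3.17 to 5.54 CPM (median 4.20) in wild types and from 1.92 to 3.92 (median 3.25) in Q140 mice, with a log2 fold change of -0.55 ± 0.17 (adjusted p = 0.0205). Dusp6 had -0.39 ± 0.13 (adjusted p = 0.0306), and Nptx2 -0.27 ± 0.095 (adjusted p = 0.0389). The last 3 calls and that of Pim1 rested on single libraries. Without Q140 M4, which stood apart from its group, 5 members fell: Dusp6 (-0.31, adjusted p = 0.101), Inhba (-0.47) and Nptx2 no longer passed. Dusp6 was also lost without Q140 F2 or the Q50-cohort wild type F2 (log2 fold change -0.34 in both fits), and Inhba without Q140 F1 (-0.51). Against the Q20-cohort wild types alone Dusp6 and Nptx2 did not pass (-0.30 and -0.25), and against the Q50-cohort wild types alone Inhba, Nptx2 and Pim1 did not (-0.50, -0.29 and -0.27). Leaving out Q140 F1, F3 or M1 ended the call of Pim1 (-0.36, -0.33 and -0.33), and 9 libraries each ended that of Nptx2 (Q140 F2, F3, M2 and M4; Q20-cohort wild types F1 and M4; Q50-cohort wild types F2, F4 and M4; -0.26 to -0.23). Without all 5 libraries that stood apart 7 members fell, among them Homer1 (-0.70 ± 0.12, adjusted p = 2.3e-05) and Inhba (-0.47 ± 0.11, adjusted p = 0.00111), Dusp6 did not pass (adjusted p = 0.0781), and Ptgs2 rose (0.41 ± 0.15, adjusted p = 0.0415).

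Members that fell at 6 months alone had these values at 10 months. Egr1 ran from 75.2 to 410 CPM (median 248) in wild types and from 91.5 to 233 (median 199) in Q140 mice (log2 fold change -0.43 ± 0.24, adjusted p = 0.215). Egr3 and Egr4 had -0.30 ± 0.22 and -0.13 ± 0.28, Ier5 -0.16 ± 0.12, Arl4d -0.20 ± 0.18 and Fosb 0.18 ± 0.21. The wild types were again widely spread, with Egr4 at 5.10 to 21.9 CPM and Fosb at 6.72 to 23.8.

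Fos ran from 2.76 to 31.2 CPM with a median of 15.3 in wild types and from 6.15 to 34.8 with a median of 16.3 in Q140 mice at 10 months (log2 fold change 0.07 ± 0.30, adjusted p = 0.902). Arc ran from 35.2 to 199.8 CPM (median 141) and from 58.2 to 153 (median 108), with -0.25 ± 0.25, and Npas4 from 9.13 to 45.2 (median 30.4) and from 19.2 to 37.9 (median 23.5), with -0.15 ± 0.23. For all 3 the Q140 libraries overlapped the wild types. Gadd45b, a stress-response gene, lay above every wild type in 6 of 8 Q140 libraries at 10 months without passing the test (0.26 ± 0.10, adjusted p = 0.0764).

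**Figure D3:**
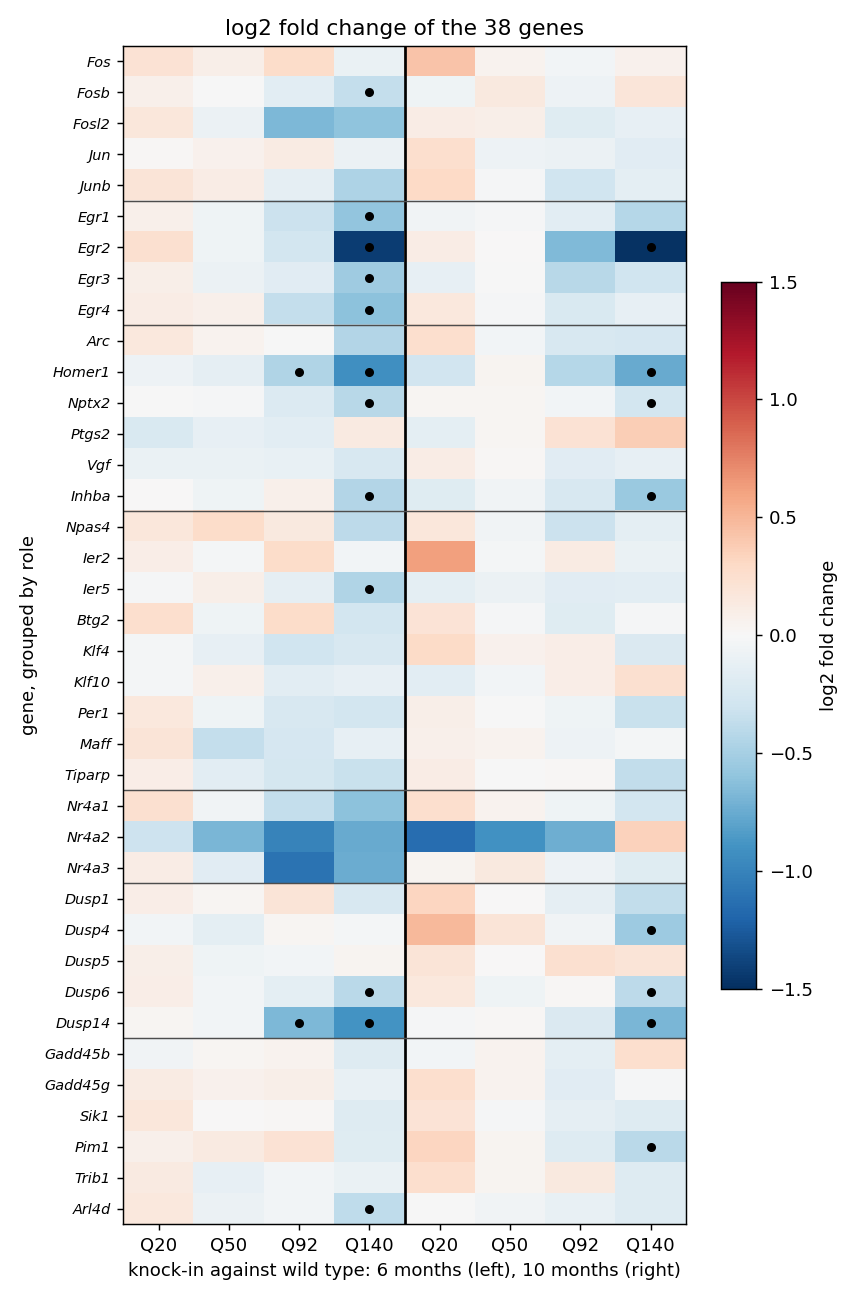
Log2 fold change of each of the 38 members (rows, ordered by role) in each knock-in genotype against wild type at 6 and 10 months (columns; blue lower, red higher); a dot marks an adjusted p under 0.05. The Q140 columns are mostly blue, with 12 dots at 6 months and 8 at 10 months, and the Q20 and Q50 columns hold none.

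The change of the Q140 effect with age was tested itself, in 1 fit over both ages. The effect differed between 10 and 6 months for 0 of the 38 members (5 with an unadjusted p under 0.05; 0 by DESeq2), with 1.27% of all genes called. Those 5 were Fosb (difference in log2 fold change 0.54), Dusp4 (-0.50), Ier5 (0.29), Klf10 (0.37) and Gadd45b (0.46, the smallest adjusted p at 0.0634). A fall called at a single age is therefore not shown to differ between the ages.

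In Q92 mice 2 members fell at 6 months and 0 at 10 months. Those at 6 months were Homer1 and Dusp14, where falls were called for 2.09% and rises for 3.35% of all genes, and the median over the 38 members was -0.14. Homer1 ran from 122 to 190.2 CPM (median 161) in Q92 mice, against a wild-type median of 216, with a log2 fold change of -0.45 ± 0.098 (adjusted p = 0.00732). Dusp14 ran from 24.9 to 47.2 CPM (median 35.7), against 57.8, with -0.67 ± 0.17 (adjusted p = 0.0155). For both genes, all 8 Q92 libraries were under the median wild type, and 2 were under the lowest.

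Both Q92 calls depended on the comparison made. The thalamus markers were also higher in Q92 mice (8 of 10 rose, mean level 4.83 ± 0.65 log2 CPM against 4.25 ± 0.73 and 2.99 ± 0.58 in the wild-type cohorts), and with that level as a covariate Homer1 had -0.34 (adjusted p = 0.134) and Dusp14 -0.57 (adjusted p = 0.142). Without Q92 F2 or F3 Dusp14 did not pass (adjusted p = 0.052 and 0.056, log2 fold change -0.65 and -0.60). Against the Q20-cohort wild types alone neither passed (adjusted p = 0.103 and 0.0994), with log2 fold changes of -0.43 and -0.73. Falls were called there for 0.0346% of all genes. Against the Q50-cohort wild types alone both passed, where falls were called for 4.35% of all genes. At 10 months 0 members were called in Q92 mice (1 with an unadjusted p under 0.05, Homer1 at -0.43 ± 0.17; 0 by DESeq2), with 0.422% of all genes called.

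Mice with the shorter repeats gave no calls. Against their own cohort's wild types, Q50 mice had 0 members called at 6 months (0 with an unadjusted p under 0.05) and 0 at 10 months (0 likewise), where 0.0634% and 0.0636% of all genes were called. Q20 mice had 0 at 6 months (0 with an unadjusted p under 0.05) and 0 at 10 months (4), with 0.0231% and 0.0405% of all genes called. DESeq2 also gave 0 in these 4 comparisons. Homer1 had a median of 210 CPM in Q20 and 209 CPM in Q50 mice at 6 months, next to the wild-type 202 and 229 by cohort.

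Across the 32 knock-in libraries of an age the members were also tested for a trend with CAG length, given for 120 units of CAG length (from 20 to 140). At 6 months 16 members fell with length and 0 rose (DESeq2 gave 0 rises and limma on log2(FPKM + 1) gave 1), with a median of -0.38, where 9.52% of all genes fell and 7.83% rose. This trend shares its Q140 libraries with the comparisons above and uses no wild types. Among the members that passed, the steepest was Egr2 (-1.52 ± 0.28, adjusted p = 0.000223), followed by Dusp14 (-1.04 ± 0.16), Homer1 (-0.87 ± 0.10), Nr4a1 (-0.81 ± 0.23) and Fosl2 (-0.79 ± 0.27); Nr4a3 had -0.94 ± 0.39 and did not pass (adjusted p = 0.092).

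Arc passed in this trend (-0.55 ± 0.16, adjusted p = 0.0177), as did Junb (-0.63 ± 0.16, adjusted p = 0.00743) and Per1 (-0.40 ± 0.13, adjusted p = 0.0337). Npas4 did not (-0.58 ± 0.21, adjusted p = 0.0563), nor did Fos (-0.19, adjusted p = 0.635). The mean level of Egr2 was 4.30 ± 0.68 log2 CPM in Q20, 4.18 ± 0.58 in Q50, 3.88 ± 0.60 in Q92 and 2.77 ± 0.43 in Q140 mice (SD, n = 8 each). The Q20, Q50 and Q92 means of Egr2 differed by less than 1 SD, and the Q140 mean stood below them by more.

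At 10 months 10 members fell with CAG length and 3 rose, with a median of -0.31, where 11.4% of all genes fell and 12.6% rose. The falls were Egr2 (-1.60 ± 0.44), Dusp4 (-0.99 ± 0.18), Pim1 (-0.78 ± 0.15), Dusp14 (-0.65 ± 0.23), Homer1 (-0.64 ± 0.20), Dusp1 (-0.61 ± 0.14), Ier2 (-0.49 ± 0.15), Dusp6 (-0.42 ± 0.13), Trib1 (-0.39 ± 0.12) and Nptx2 (-0.29 ± 0.11). The rises were Nr4a2 (1.42 ± 0.36, adjusted p = 0.00503), Ptgs2 (0.49 ± 0.14, adjusted p = 0.0122) and Klf10 (0.42 ± 0.14, adjusted p = 0.0274). 

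Of 11 cortical projection neuron markers, whose level Nr4a2 followed between mice, 6 rose and 1 fell with CAG length at 10 months (median 0.24). With the cortex level as a covariate the 3 rises still passed, with Nr4a2 at 0.99 ± 0.29 (adjusted p = 0.0105), and with thalamus and cortex levels together Nr4a2 had 0.37 ± 0.38 (adjusted p = 0.589). At the Q20 end of the 10-month trend 2 of the 8 libraries stood apart and the thalamus level was highest. All 10 thalamus markers fell with CAG length (median -1.90), from 5.48 ± 0.91 log2 CPM in Q20 to 3.43 ± 0.79 in Q140 mice. With the thalamus level as a covariate 17 members fell and 0 rose: Nr4a2 had 1.16 ± 0.53 (adjusted p = 0.143), Klf10 0.03 ± 0.13 (adjusted p = 0.919) and Ptgs2 0.19 ± 0.16 (adjusted p = 0.453). Without the 5 libraries that stood apart 16 members fell and the same 3 rose, with Nr4a2 at 1.71 ± 0.40 (adjusted p = 0.00284). The share of all genes called was not counted in the fits with covariates or without the 5 libraries.

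In that fit without the 5 libraries Egr1, Egr3, Arc, Npas4, Junb, Per1, Vgf and Inhba also passed, and Ier2 and Trib1 no longer did. Egr2 then had -1.70 ± 0.28 (adjusted p = 5.5e-05), Homer1 -0.78 ± 0.12 (adjusted p = 3.1e-05) and Dusp1 -0.62 ± 0.096 (adjusted p = 2.3e-05). The level of Nr4a2 had a median of 6.48 CPM in Q140 mice at 10 months, from 1.59 to 17.1, against 2.71 (2.06 to 5.06) in Q20 mice. The highest wild type reached 30.9 CPM.

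**Figure D4:**
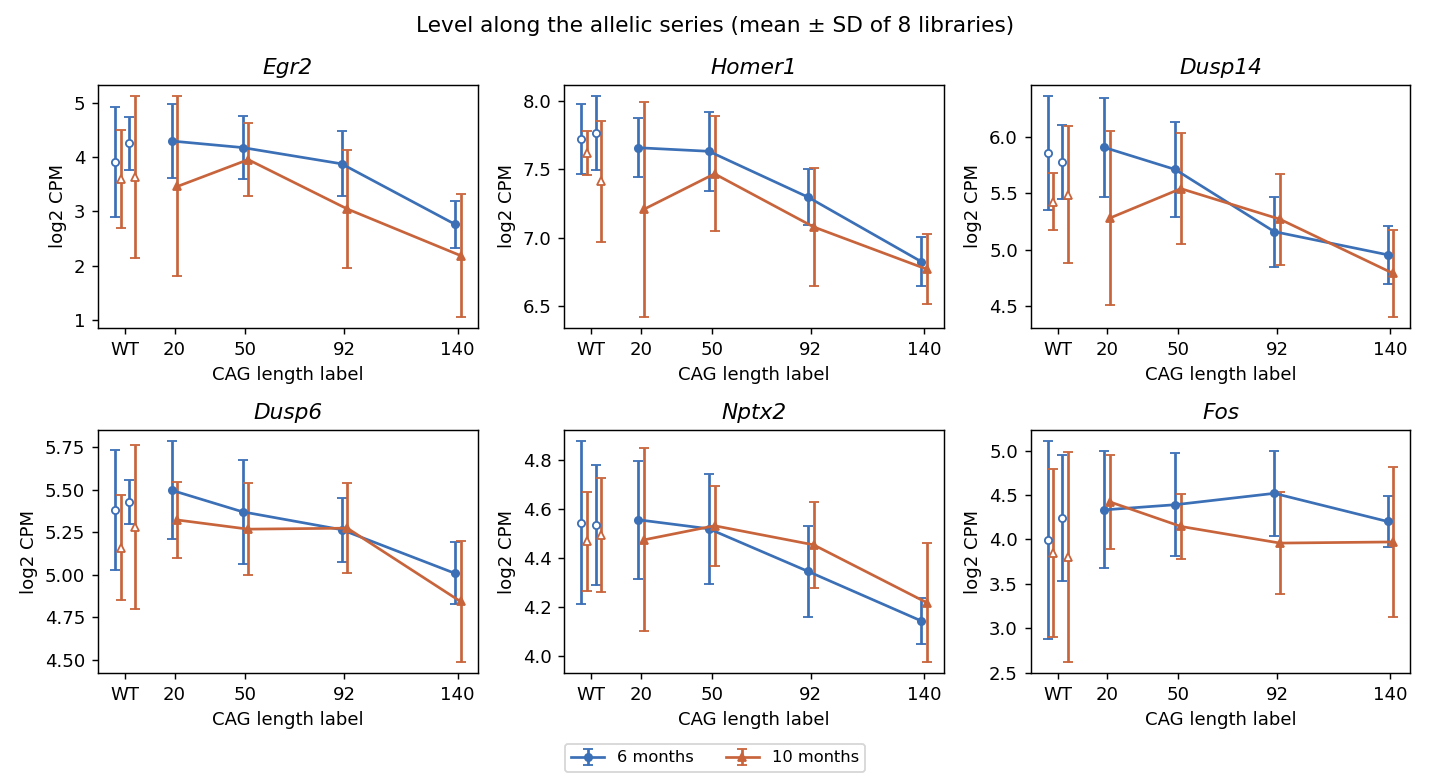
Mean log2 CPM with SD (n = 8 libraries) of Egr2, Homer1, Dusp14, Dusp6, Nptx2 and Fos in the wild-type cohorts and in Q20, Q50, Q92 and Q140 mice at both ages. Homer1 steps down from Q50 to Q92 to Q140 at 6 months (7.63, 7.30 and 6.83), Egr2 drops at Q140, and the error bars of Fos overlap between all groups of an age.

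The members called in Q140 mice were spread over the range of correlations with Fos. At 6 months 2 of the 11 members with an r over 0.7 with Fos fell in Q140 mice (median log2 fold change -0.38), and 6 of the 14 with an r under 0.3 fell (median -0.43). At 10 months it was 2 of 12 (median -0.22) and 3 of 5 (median -0.40). Of the 13 members with an r over 0.7 with Nr4a3, 6 fell at 6 months (median -0.60) and 3 of 13 at 10 months (median -0.27). With an r under 0.3 with Nr4a3, 2 of 13 fell at 6 months (median -0.20) and 1 of 7 at 10 months (median -0.10). These are counts over members of the same libraries and were not tested.

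**Figure D5:**
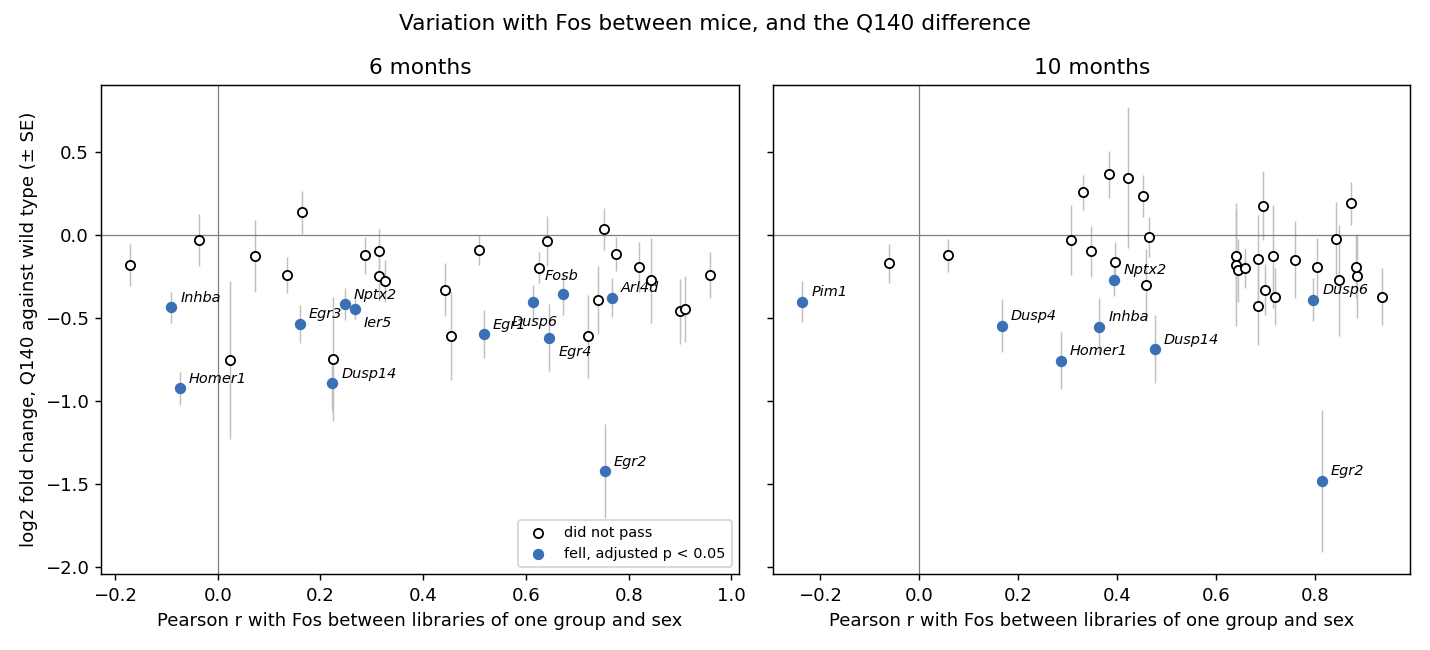
Log2 fold change of each member in Q140 mice against wild type (vertical) and its Pearson r with Fos between mice of the same group (horizontal), at 6 and 10 months; filled points passed an adjusted p under 0.05. Homer1 and Dusp14 lie low at the left, with an r of -0.07 and 0.22 at 6 months, Egr2 lies lowest at an r of 0.75, and Dusp1 lies farthest right at 0.96.

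With each library's Fos level as a covariate more members passed. At 6 months 18 fell: Dusp1 then had a log2 fold change of -0.23 ± 0.042 (adjusted p = 3.37e-05) in place of -0.24 ± 0.14, Arc -0.41 ± 0.085 (adjusted p = 0.000319) in place of -0.45 ± 0.20, and Junb, Npas4, Nr4a1 and Gadd45b also passed. At 10 months 12 fell, with Dusp1 at -0.39 ± 0.065 (adjusted p = 2.03e-05) in place of -0.37 ± 0.17, and with Per1, Sik1 and Tiparp. The estimates for Dusp1 and Arc moved little and their standard errors shrank. Fos is itself a member that Dusp1 and Arc follow closely, so these fits compare members at an equal Fos level. The share of all genes called in these fits was not counted, so the 18 and 12 have no background beside them.

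Sex and its interaction with genotype touched few members. At 6 months 0 differed between males and females (4 with an unadjusted p under 0.05; 0 by DESeq2), with 2.3% of all genes called, and at 10 months Vgf alone did, 1.25-fold higher in males (log2 fold change 0.33 ± 0.066, adjusted p = 0.00325), with 1.63% called. The Q140 effect differed between the sexes for 0 members at 6 months (0 with an unadjusted p under 0.05) and 0 at 10 months (2 with an unadjusted p under 0.05; 0 by DESeq2 at both ages), with 0% of all genes called at either age.

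In wild types 3 members were lower at 10 than at 6 months: Egr4 (log2 fold change -0.81 ± 0.21, adjusted p = 0.0129), Klf4 (-0.49 ± 0.14, adjusted p = 0.0237) and Gadd45b (-0.34 ± 0.075, adjusted p = 0.00406). Of all genes 9.35% were called, 4.89% falling and 4.45% rising. The thalamus markers had a median of 0.98 between the ages (1 of 10 rose), and with thalamus and cortex levels as covariates 0 members passed. The median over members was -0.24 and 36 of 38 lay below 0. The 2 ages carry separate runs of library codes, so age and library run cannot be told apart.

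Genes of the same biology outside the 38 were also counted, to be read against the 12% of all genes that fell and 11.7% that rose at 6 months, and the 8.45% and 10.8% at 10 months. Of 33 further activity-induced genes 7 fell and 1 rose in Q140 mice at 6 months (median -0.13), among them Spry2, an inhibitor of receptor tyrosine kinase signalling (-0.49 ± 0.067), and Plk2, a kinase of synaptic scaling (-0.38 ± 0.062). At 10 months 3 fell and 2 rose, and the stress factor gene Atf3 rose 2.11-fold (1.08 ± 0.20, adjusted p = 9.81e-05). Of 34 family relatives of the members, 7 fell and 2 rose at 6 months (median -0.08) and 4 fell and 2 rose at 10 months (median -0.03).

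Upstream of the members, 19 of 46 receptor, kinase and factor genes fell and 2 rose at 6 months (median -0.07), and 14 fell and 2 rose at 10 months (median -0.06). This list shares Ppp1r1b, Adcy5, Gnal, Drd1, Drd2, Adora2a and Mef2c with the marker lists, so their changes are counted in both. Adora2a, an adenosine receptor gene of indirect pathway neurons, fell 1.71-fold (adjusted p = 1.71e-11) and Ppp1r1b, which encodes DARPP-32, fell 1.55-fold (adjusted p = 1.26e-10) at 6 months. At 10 months Camk4, a CREB kinase gene, fell 1.42-fold (adjusted p = 0.00352) and Rps6ka5, which encodes the kinase MSK1, 1.32-fold (adjusted p = 0.00188).

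Of 13 circadian clock genes, a list that holds no member, 8 fell at each age (medians -0.18 and -0.23). Npas2 (-0.54 ± 0.056) and Dbp (-0.40 ± 0.057) fell at 6 months, and Ciart (-0.54 ± 0.11) and Hlf (-0.44 ± 0.075) at 10 months. Of 13 glucocorticoid-responsive genes 2 fell at each age, a number near that of all genes: Mt1 and Cdkn1a at 6 months and Cdkn1a and Zbtb16 at 10 months.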

How the data were processed

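Gene-level tables for 96 libraries and 39179 Ensembl identifiers were deposited, in 2 units. The expected counts deposited by the authors are raw estimates of the reads of a gene, of which 27.7% of those above 0 were not whole (tolerance 0.001). The FPKM deposited by the authors correct these for transcript length and sequencing depth. Per the submitters' processing notes CASAVA 1.8.2 was used; for the aligner, the quantifier, strandedness and build, the sources used here give no name. Symbols were taken by identifier from GENCODE M21.

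Rounded expected counts entered edgeR 4.0.16 (R 4.3.3; TMM, filterByExpr, robust quasi-likelihood F test, two-sided). The 48 libraries of an age were fitted together, with group and sex as terms. Genes passed at a Benjamini-Hochberg adjusted p below 0.05, taken over every gene in the fit, and adjusted p-values of fold changes and slopes come from this test unless another tool is named. The reference for Q140 and Q92 was the average of the 2 wild-type cohorts, and for Q50 and Q20 the wild types of their cohort. All 38 members passed the filter. The ± after a log2 fold change is its standard error. CPM used TMM factors over all 96 libraries, log2 CPM a prior count of 2, and genes were ranked against each other by FPKM alone. Correlations used log2 CPM deviations from group and sex means, with 100000 permutations. The fit was tested on counts simulated with the same added spread for every gene and no variation shared between genes. That setting does not cover the wide and shared spread of the members.

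The members, the other gene lists and the markers were chosen with earlier results of these data known. Values are given in full for members past the threshold in Q140 or Q92 mice at either age and for Fos, Arc, Egr1 and Npas4. From each other list at most 2 genes called in Q140 mice are named at each age, those of lowest p, and Htt as the targeted gene. Alternatives were RLE size factors, other filters, DESeq2 1.42.0, limma 3.58.1 on log2(FPKM + 1) or log2(FPKM + 0.1), other references, single sexes, tissue and Fos levels or the library code as covariates, a replicate block, and fits without single libraries. Replicate numbers recur within each sex in every group, but no label says that they pair mice. The lowest totals and 8 libraries per group limit the precision of members near 1 CPM such as Maff. Within each group no pair of libraries agreed within sampling noise.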

Additional observations from a re-analysis of the deposited data

Results flagged for a closer look

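In 17 members and 12 groups of 8 libraries, 204 combinations were checked for a single library whose gap to the next one, as a share of the group's range of log2 CPM, exceeded Dixon's critical value of 0.526. It did in 33 (16.2%), where chance alone gives about 1 in 20, or 10.2. The values fell on few mice, mostly as low levels shared by several members; values below are CPM, with the group median beside them, and their cause was not tested.

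Q92 F1 at 10 months, which stood apart over all genes, was low in 8 members: Fosb (5.72 against 13.9), Egr1 (74.8 against 238.5), Egr2 (1.36 against 10.3), Egr4 (3.19 against 10.98), Npas4 (10.2 against 23.0), Homer1 (67.5 against 147), Ier5 (19.6 against 31.97) and Arl4d (13.3 against 30.3). It was high in Pim1 (3.14 against 1.96). Its projection neuron marker level was 8.16 log2 CPM and its thalamus level 6.49, where the group means were 9.17 and 4.62. Q20 F4 at 10 months, which also stood apart, was low in Fos (8.85 against 22.8), Egr2 (0.715 against 18.3) and Dusp6 (28.2 against 42.1). The same 2 marker levels were 7.45 and 6.48 log2 CPM in Q20 F4, where the group means were 9.01 and 5.48.

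Other mice at 6 months that were not among the 5 libraries farthest from their group were low in several members. Q20 M2 had low Fosb (11.8 against 18.04), Egr2 (6.83 against 23.6), Dusp6 (29.3 against 47.1), Dusp14 (30.2 against 66.5) and Arl4d (27.9 against 42.6). Q50 F1 had low Egr1 (177 against 301), Egr2 (7.40 against 18.2), Egr4 (13.1 against 25.6) and Dusp6 (24.6 against 44.2). Q92 F3 had low Fosb (10.98 against 18.3) and Egr2 (5.72 against 16.5).

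Among wild types the Q20-cohort M1 at 6 months was low in Fos (2.61 against 20.7), Egr4 (4.79 against 21.5) and Npas4 (8.63 against 33.9). The Q50-cohort F1 at 6 months was low in Egr1 (210.3 against 324) and Dusp14 (32.6 against 57.8). At 10 months the Q20-cohort F3 was low in Fos (3.42 against 14.9) and the Q50-cohort F1 in Arc (35.2 against 154) and Arl4d (12.8 against 35.5). Dusp6 was low in Q50 F3 at 10 months (25.4 against 39.5), and Ier5 was high in Q50 M3 at 6 months (53.7 against 41.2). No Q140 library met this criterion for any of the 17 members.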

How the results depend on the processing

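Of 656 recomputed counts of members called, 591 lay within 1.5 times the reported ones. The 591 include reported counts of 0 that stayed 0, so this share says little about the counts above 0. The share of all genes called was counted only for comparisons with other references, so the other recomputed counts have no background beside them. Where counts moved further, the cause was not tested. Falls in Q140 mice at 6 months (12) were 6 in females alone and 6 in males alone. Falls in Q92 mice at 6 months (2) were 0 with the thalamus level, 0 with thalamus and cortex levels, 5 with the Fos level and 1 with the library code. They were 1 in females, 0 in males and 1 to 3 without single libraries. Against the Q20-cohort wild types and against Q20 mice they were 0, where 0.0346% and 0.0519% of all genes fell. At 10 months falls in Q140 mice (8) were 0 in females, 3 in males, 5 against either wild-type cohort and 5 to 9 without single libraries. Against the Q20 cohort 7.76% of all genes fell, and against the Q50 cohort 5.69%. Rises in Q140 mice at 10 months (0) were 2 in males and 1 without the 5 libraries that stood apart (chosen after the data were seen). They were 2, 2 and 1 with limma on log2(FPKM + 1), log2(FPKM + 0.1) and unfiltered log2(FPKM + 1). They were 3 against Q20 mice (Nr4a2, Klf10 and Ptgs2), where 13.2% of all genes rose, and 0 to 2 without single libraries. Against Q20 mice 1 member fell in Q92 mice at 10 months, where 0.665% of all genes fell. In Q20 mice at 10 months 2 fell and 2 rose with the library code, and 1 rose with the cortex level. Members that differed by sex at 10 months (1) were 3 with the Fos level, 3 without the 5 libraries, 2 with the thalamus level and 2 with DESeq2.

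The 6-month trend (16 falls) gave 10 in females and 2 in males, and 1 rise with thalamus, with cortex or with both levels, in females, and with limma on log2(FPKM + 1) or log2(FPKM + 0.1). The 10-month trend (10 falls, 3 rises) gave 4 and 1 with the library code, 0 and 0 in females, 6 and 1 in males, 16 and 3 without the 5 libraries, 17 and 0 with the thalamus level, and 0 rises with thalamus and cortex levels. The Q140 effect differed between the ages for 1 member with the cortex level and 1 with the Fos level. Age in wild types (3) gave 5 with a filter of 1 CPM in 8 libraries, 0 with thalamus and cortex levels, 5 with cortex, 7 with Fos, 0 in each sex, 8 with DESeq2 and 5 with limma on either FPKM scale.

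The sign of Fos in Q140 mice turned. At 6 months its log2 fold change was 0.0815, 0.118 and 0.0815 with limma on log2(FPKM + 1), log2(FPKM + 0.1) and unfiltered log2(FPKM + 1), and -0.181 to 0.0504 without single libraries. At 10 months it was -0.13 with thalamus and cortex levels, -0.22 in females, -0.0740 with the thalamus level, -0.33 against Q20 mice, and -0.16 to 0.19 without single libraries. The replicate numbers did not pair the mice: same-numbered libraries had a median correlation of deviations of 0.00027 at 6 months and -0.012 at 10 months, and 2 of 48 and 4 of 48 correlated best with their own number. With the replicate block 12 members fell in Q140 mice at 6 months and 7 at 10 months (Nptx2 was lost), and the trends gave 15 and 9 falls. The precision of members near 1 CPM is limited by depth.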
